A study of Mus musculus with 48 samples.

Results

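Glycolysis and hypoxia response genes were followed as a list of 33 genes in cultured mouse liver macrophages. Its members are taken by gene symbol. Of the 33 genes, 31 had a probe set among the 19505 genes tested, 1 probe set each. Eno1 and Gpi1 were not analysed here, and the listed Ero1l is carried as Ero1a. The 31 genes fell into 2 transporters of glucose and lactate, 9 genes of upper glycolysis, 5 of lower glycolysis and pyruvate use, 6 of oxygen sensing, 3 acting at mitochondria or in stress survival, and 6 of secretion, matrix or pH control.

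Glycolysis splits glucose into pyruvate, which either enters the mitochondria or is reduced to lactate and exported. Macrophages lean on this route when they are activated or short of oxygen. The transcription factor HIF-1 is a dimer of the oxygen-labile subunit encoded by Hif1a with a stable partner. In oxygenated cells prolyl hydroxylases such as those encoded by Egln1 and Egln3 mark the subunit for destruction through the VHL ubiquitin ligase. When it escapes, the dimer binds DNA at short elements with the core RCGTG and raises genes of glucose uptake, glycolysis, lactate export, angiogenesis and mitophagy, and also Egln3 itself. In macrophages Hif1a is also raised at the RNA level by inflammatory signals, without low oxygen.

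The arrays hold RNA of F4/80-sorted Kupffer cells, which are macrophages that reside in the liver, and of macrophages grown from CD115-sorted blood monocytes of the same Balbc male mice. Cells of each kind spent 1 day with macrophage colony-stimulating factor (MCSF), and then 1 or 3 more days with hepatocyte growth factor (HGF), with Ito cells, with CD146 cells, or, as the control, with MCSF alone. The control cultures had therefore been in MCSF for 2 or 4 days, and those with an addition for 1 day. Each addition thus took the place of further MCSF. In every comparison with a control, an addition and the lack of MCSF cannot be told apart. Ito cells, or hepatic stellate cells, store vitamin A, and the CD146 cells are described as sinusoidal endothelial cells. The 16 groups had 3 arrays each, 48 in all, and the titles call the 3 biological replicates. Whether the 3 came from separate mice is not given, so p-values measure the spread between these arrays. The labels do not say whether Ito or CD146 cells were removed before RNA was taken, nor what oxygen level the cultures had.

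The macrophage genes Csf1r and Adgre1 were high in all 16 groups, with group means of at least 13.16 on the log2 scale. Adgre1 was lowest in Kupffer cells with an addition at 3 days. There it read 13.28 with HGF, 13.16 with Ito cells and 13.34 with CD146 cells, against 17.22 in their control. Clec4f, which defines resident Kupffer cells, was at 2.76 to 3.52 and under the negative control probe sets in every group, so the resident identity is not borne out by that gene. The 12 Kupffer cell genes listed, Clec4f among them, averaged 10.01 in the Kupffer and 7.41 in the monocytic control at 1 day, and 9.16 and 9.72 at 3 days. Cdh5 is on this list and also among the endothelial genes below, so these averages are not independent. Lrat, which defines Ito cells, was also under the negative controls in all 16 groups, but Col1a1, a collagen gene of activated Ito cells and fibroblasts, was above them in both controls at 3 days, at 9.16 in Kupffer and 8.10 in monocytic cells. The 14 Ito cell and fibroblast genes averaged 4.92 in the Kupffer and 4.21 in the monocytic control at 1 day and 6.57 and 6.30 at 3 days. Stab2 of sinusoidal endothelium was above the negative controls in 2 groups. The Kupffer control at 1 day carried transcripts of other cells: 14 endothelial genes averaged 8.18 ± 1.28 (SD, n = 3), against 4.00 in the same control at 3 days, and 14 hepatocyte genes averaged 7.005 against 4.54. Its 6 B cell genes ran from 3.93 on 1 array to 9.93 on another. Other Kupffer groups also carried transcripts of other cells. With HGF at 1 day the endothelial and hepatocyte averages were 7.68 and 6.66. At 3 days the hepatocyte average was 6.80 with HGF, 5.96 with Ito cells and 5.31 with CD146 cells. The cholangiocyte average was then 8.43, 6.57 and 7.41, against 3.57 in the control. In such bulk RNA, fewer cells of a type and less RNA per cell cannot be told apart. The following 3 arrays stood apart from their groups over all genes, namely Kupffer control at 1 day replicate 1, Kupffer with HGF at 1 day replicate 2 and monocytic control at 3 days replicate 3.

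Promoters are printed for the 6 genes that passed the test in most of the 26 comparisons, since these carry the patterns below. Hif1a passed in 17 comparisons, Bnip3, P4ha1, Slc16a3 and Slc2a1 in 15 each, and Egln3 in 14. Each sequence is the RefSeq GRCm38.p6 stretch from 250 bases before the transcription start to 50 bases after its first base, 5′ to 3′ on the gene's strand. Capitals mark ACGTG or GCGTG on either strand, the 2 spellings of the HIF core, so a match on the other strand reads CACGT or CACGC. These coordinates belong to the annotation, since the array table has none.
Hif1a, chr12:73907617-73907916, plus strand: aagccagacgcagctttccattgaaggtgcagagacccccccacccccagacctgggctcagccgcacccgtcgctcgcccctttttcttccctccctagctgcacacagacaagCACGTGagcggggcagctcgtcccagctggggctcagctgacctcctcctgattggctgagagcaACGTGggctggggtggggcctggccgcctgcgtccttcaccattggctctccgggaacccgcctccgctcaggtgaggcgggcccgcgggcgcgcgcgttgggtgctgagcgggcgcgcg
Bnip3, chr7:138909457-138909756, minus strand: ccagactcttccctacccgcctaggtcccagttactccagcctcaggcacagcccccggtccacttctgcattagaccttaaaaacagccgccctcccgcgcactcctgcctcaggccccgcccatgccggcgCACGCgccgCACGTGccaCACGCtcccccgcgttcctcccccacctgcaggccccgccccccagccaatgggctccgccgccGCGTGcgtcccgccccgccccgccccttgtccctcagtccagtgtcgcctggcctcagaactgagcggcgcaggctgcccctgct
P4ha1, chr10:59323046-59323345, plus strand: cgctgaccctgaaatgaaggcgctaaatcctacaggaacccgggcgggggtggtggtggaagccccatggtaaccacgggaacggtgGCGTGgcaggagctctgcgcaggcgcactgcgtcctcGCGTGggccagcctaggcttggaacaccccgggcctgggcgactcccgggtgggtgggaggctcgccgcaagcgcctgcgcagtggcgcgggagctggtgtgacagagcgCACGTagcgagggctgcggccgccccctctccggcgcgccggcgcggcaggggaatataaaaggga
Slc16a3, chr11:120948817-120949116, plus strand: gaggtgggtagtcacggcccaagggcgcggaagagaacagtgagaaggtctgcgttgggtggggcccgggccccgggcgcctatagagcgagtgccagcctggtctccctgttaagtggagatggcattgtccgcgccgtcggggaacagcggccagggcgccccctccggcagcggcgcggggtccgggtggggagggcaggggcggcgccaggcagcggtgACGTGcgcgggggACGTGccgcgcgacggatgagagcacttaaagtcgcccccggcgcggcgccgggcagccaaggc
Slc2a1, chr4:119108495-119108794, plus strand: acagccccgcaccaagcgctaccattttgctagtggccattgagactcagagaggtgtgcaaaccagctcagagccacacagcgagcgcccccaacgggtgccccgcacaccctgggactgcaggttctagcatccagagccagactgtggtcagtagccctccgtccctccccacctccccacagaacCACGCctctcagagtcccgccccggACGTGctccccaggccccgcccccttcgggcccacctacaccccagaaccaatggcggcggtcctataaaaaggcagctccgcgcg
Egln3, chr12:54203825-54204124, minus strand: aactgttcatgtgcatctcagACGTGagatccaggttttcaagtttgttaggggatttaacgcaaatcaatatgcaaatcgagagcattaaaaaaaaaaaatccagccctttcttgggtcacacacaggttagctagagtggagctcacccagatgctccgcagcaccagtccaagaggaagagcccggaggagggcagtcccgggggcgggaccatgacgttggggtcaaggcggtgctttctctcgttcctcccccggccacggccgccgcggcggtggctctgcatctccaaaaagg

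Among the 30 genes with a promoter in the table, 18 held ACGTG, against 19.7% of 27025 genes, 1 promoter per gene. Over every listed promoter the share was 59.5% of 42, against 19.6% of 32851. GCGTG was present in 17 of the 30 (56.7%), against 32.5%, and either spelling in 24 (80.0%), against 43.8%. The genes were listed for glycolysis and the hypoxia response, so these shares are not independent of that choice. They are set against all genes of the promoter table, not only those on the array. The pair of overlapping ACGTG matches at -135 and -134 in the Hif1a promoter is a single palindrome, CACGTG, which an E-box also fits. The same palindrome lies at -108 and -107 upstream of Bnip3. Slc16a3 has its matches at -27 and -14, close to the start, and Egln3 has its only match at -229. A match describes these letters in this window and is not a bound site. Ndrg1 had no promoter in the table.

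Levels are log2 array signals, and differences between groups are log2 differences, so 1 unit is a factor of 2. Group means ranged from 2.65 for Eno2, the neuronal enolase, in the monocytic HGF group at 1 day, to 18.37 for Ldha, lactate dehydrogenase A, in the Kupffer HGF group at 1 day. No level is set against that of another gene, because probe sets differ in brightness. Eno2 was under the mean of the negative control probe sets on all 48 arrays and is not measured here. Car9, a surface carbonic anhydrase, was above them on 7 arrays, Ndrg1 on 31, Adm on 32 and Ankrd37 on 46, and the other 26 genes were above them on all 48.

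With groups wholly under the negative controls set to the mean of those, the spread of group means was 5.19 for Slc16a3, the lactate exporter MCT4, and 5.03 for Egln3. It was at least 4.86 for Ndrg1, a stress-response gene of differentiation, 4.67 for Vegfa and 4.597 for Ero1a. Among the 26 genes above the negative controls on all arrays it was narrowest for Aldoa (1.44), Pfkfb4 (1.73) and Egln1 (1.74). The monocytic control at 3 days was the lowest of the 16 groups for 12 genes, among them Slc2a1, Slc16a3, Hk2, Pgk1, Ldha, Pdk1, Egln3 and Ero1a. The Kupffer control at 3 days was the highest for Pfkl, Pfkfb3, Aldoa and Bnip3.

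Some genes passed rarely or in 1 direction. Aldoa passed in 1 of the 26 comparisons and Hk1, the broadly expressed hexokinase, in 5, each time higher. Higher here means higher with an addition than in the control, in Kupffer than in monocytic cells, at 3 days than at 1, or with Ito than with CD146 cells, or a response higher in Kupffer cells. Kdm3a was lower in all 7 of its calls and Pfkfb4, another maker of fructose 2,6-bisphosphate, in all 5. Higd1a, a mitochondrial stress gene, and Egln1 passed in 9 each, in both directions. Mxi1 and Car9 passed in 7 each. The comparisons share arrays, so these counts describe and do not add up as evidence.

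**Figure D1:**
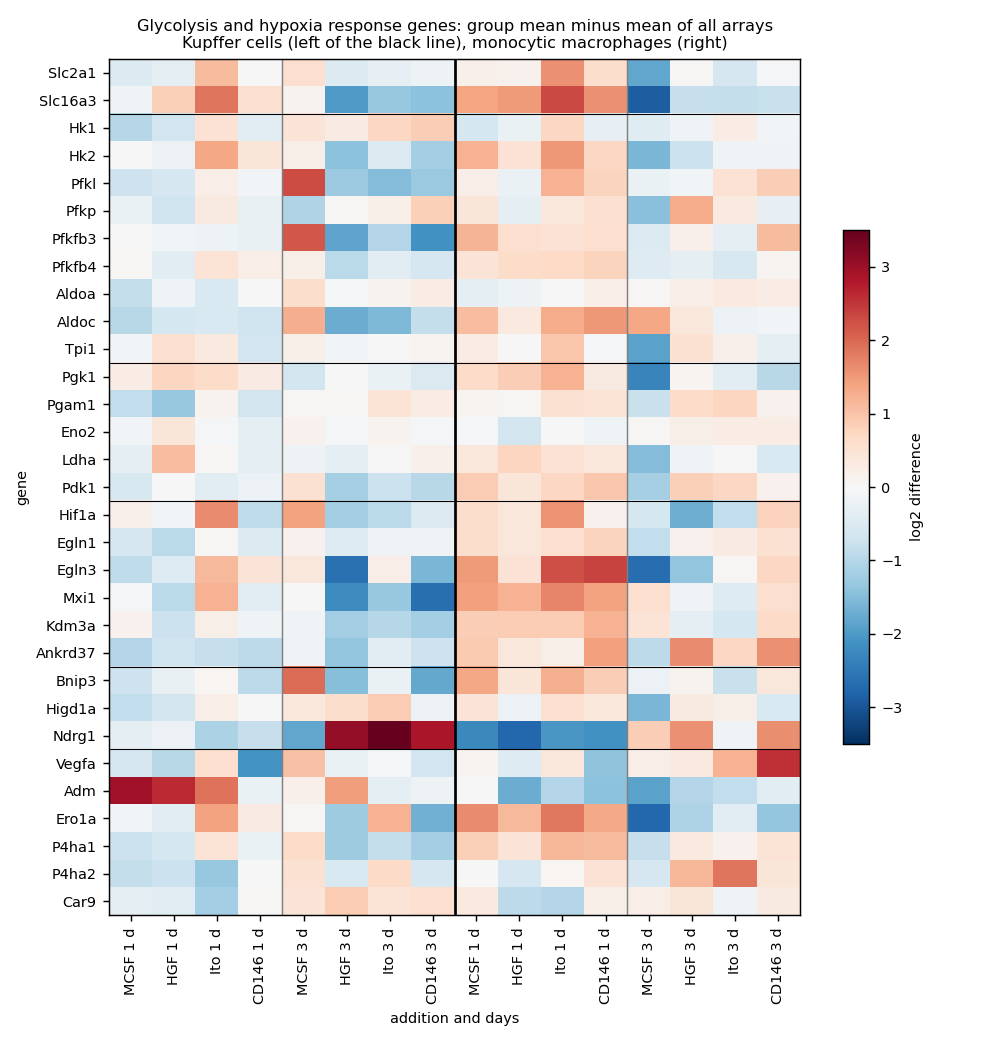
Group mean of each measured gene minus its mean over all 48 arrays (colour, log2), with genes in rows ordered by role and the 16 groups in columns. The monocytic control at 3 days is pale to dark blue in most rows, while Ndrg1 runs opposite to most other rows in several columns.

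The first question was how the genes moved in control cultures over time. In Kupffer cells 16 of the 31 rose from 1 to 3 days in MCSF and 3 fell. Car9 is among those that rose, though its mean was under the negative controls on both days. Over all genes 21.5% rose and 10.2% fell, 31.8% in all, and the median of all genes shifted by 0.15. Differences from here on are given less that median wherever it exceeds 0.1 in size. The test is that of the unshifted difference, by limma with Benjamini-Hochberg adjustment over all genes and a threshold of 0.05. On every array the median signal of all genes lay under the mean of the negative controls. The shift may therefore be one of dim genes and need not hold for bright ones. Where it is below 0, taking it off makes a printed rise larger than the tested one. Where it is above 0, as here, a printed fall is larger than the tested one. The median of the 31 was 0.89 before that subtraction. Shares over all genes, here and below, also include these dim genes, while most of the 31 were above the negative controls on all arrays. No background matched for signal was tested.

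Pfkl, the liver-type phosphofructokinase of the committed step, read 9.72, 10.15 and 10.86 on the 3 arrays at 1 day and 13.04, 13.20 and 13.45 at 3 days, with no overlap. The difference was 2.84 ± 0.25 (SE; adjusted p = 1.67e-12). Pfkfb3 makes fructose 2,6-bisphosphate, the activator of that step, and rose by 2.03 ± 0.33 (adjusted p = 1.03e-06), from 9.94, 11.39 and 11.57 to 12.43, 13.32 and 13.66. Bnip3, a mitophagy receptor, went from 7.26, 8.88 and 9.81 to 10.64, 11.65 and 11.66 (2.51 ± 0.36, adjusted p = 1.63e-07). Aldolase C, Aldoc, rose by 2.08 ± 0.38 and aldolase A by 1.29 ± 0.27. Hif1a rose by 1.08 ± 0.28 (adjusted p = 0.000611), from 15.32, 15.60 and 15.75 to 16.37, 16.93 and 17.07. P4ha1 and P4ha2, which hydroxylate prolines of collagen, rose by 1.25 ± 0.24 and 1.21 ± 0.31, and Vegfa, the endothelial growth factor, by 1.48 ± 0.37. Slc16a3, Hk2 and Ldha did not pass, with differences before the median of 0.25, 0.20 and 0.13.

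Adm, Pgk1 and Ndrg1 ran the other way. Adm, the vasodilator peptide adrenomedullin, fell by 2.91 ± 0.37 (adjusted p = 1.05e-07), from 8.23, 9.40 and 10.00 to at most 6.88. Ndrg1 was under the negative controls at 3 days and at least 1.35-fold lower than at 1 day (adjusted p = 0.00635). Pgk1, phosphoglycerate kinase, fell by 1.05 ± 0.30 (adjusted p = 0.0173). Calls lost without 1 array, at adjusted p from 0.0563 to 0.331, were those of Car9, Egln3, Ndrg1, Pgam1, Pgk1 and Slc2a1, through 1-day replicates 1 and 3 and 3-day replicates 2 and 3, and 13 of the 19 held without any 1 array. Quantile normalization left 11 higher and 5 lower. Endothelial genes (14 of 14), hepatocyte genes (11 of 14) and B cell genes (5 of 6) fell over the same days while 7 of 11 core macrophage genes and 8 of 14 Ito cell and fibroblast genes rose, and their part in the result was not tested.

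Monocytic macrophages went the other way over the same days. Of the 31 genes 20 fell and 1 rose, where 9.82% of all genes fell and 19.5% rose, 29.3% in all. The median of the 31 was -1.56, against 0.13 for all genes.

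Slc16a3 was at 15.11, 15.15 and 15.27 at 1 day and at 10.46, 10.87 and 11.42 at 3 days. This difference of -4.39 ± 0.33 (adjusted p = 2.97e-13) was among the widest of the list. Egln3 fell from 11.98, 12.03 and 12.59 to 7.52, 8.30 and 8.36 (-4.27 ± 0.41, adjusted p = 1.35e-10). Ero1a, the oxidase that renews disulfide bonds in the endoplasmic reticulum, fell from 13.55, 14.19 and 14.20 to 9.11, 9.48 and 10.15 (-4.53 ± 0.48, adjusted p = 1.58e-09). In each of these 3 genes every array at 3 days lay below every array at 1 day.

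Both transporters fell, 5 of the 9 upper glycolysis genes and 4 of the 5 of lower glycolysis and pyruvate use. Hk1, Aldoa, Aldoc and Pfkl did not pass, at 0.06, 0.25, 0.13 and -0.59. The glucose transporter Slc2a1 (GLUT1) fell by 2.13 ± 0.30, hexokinase 2 (Hk2) by 2.94 ± 0.37, and Tpi1, triose phosphate isomerase, by 2.25 ± 0.37. Pgk1 fell by 3.07 ± 0.30, Ldha by 2.03 ± 0.30 and Pdk1, a kinase that inhibits pyruvate dehydrogenase, by 2.19 ± 0.28. Their adjusted p-values ran up to 2.25e-05. The Pgk1 arrays at 3 days were 12.04, 12.46 and, on replicate 3, 14.47, all below the 15.75 to 16.09 of day 1. Hif1a fell by 1.37 ± 0.28 (adjusted p = 0.000687).

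Ndrg1 was the exception, at 4.11, 4.17 and 4.50 at 1 day, under the negative controls, and at 6.97, 7.40 and 7.76 at 3 days. It was at least 2.97-fold higher at 3 days, taking the mean of the negative controls at 1 day as the floor (adjusted p = 2.58e-07). Adm at 3 days was under the negative controls, at least 1.27-fold lower than at 1 day (adjusted p = 0.000128). Calls of Pfkfb4 and Pgam1 were lost without 1-day replicate 2 or 3 or 3-day replicate 1 or 2 (adjusted p 0.0526 to 0.198), and the other 19 of 21 held without any 1 array. Replicate 3 at 3 days had cell cycle genes at 11.47 on average, where another array of that group had 6.72; without it and the other 2 arrays that stood apart 23 genes passed. Of the 14 Ito cell and fibroblast genes 10 rose over these days, and their part in the result was not tested.

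**Figure D2:**
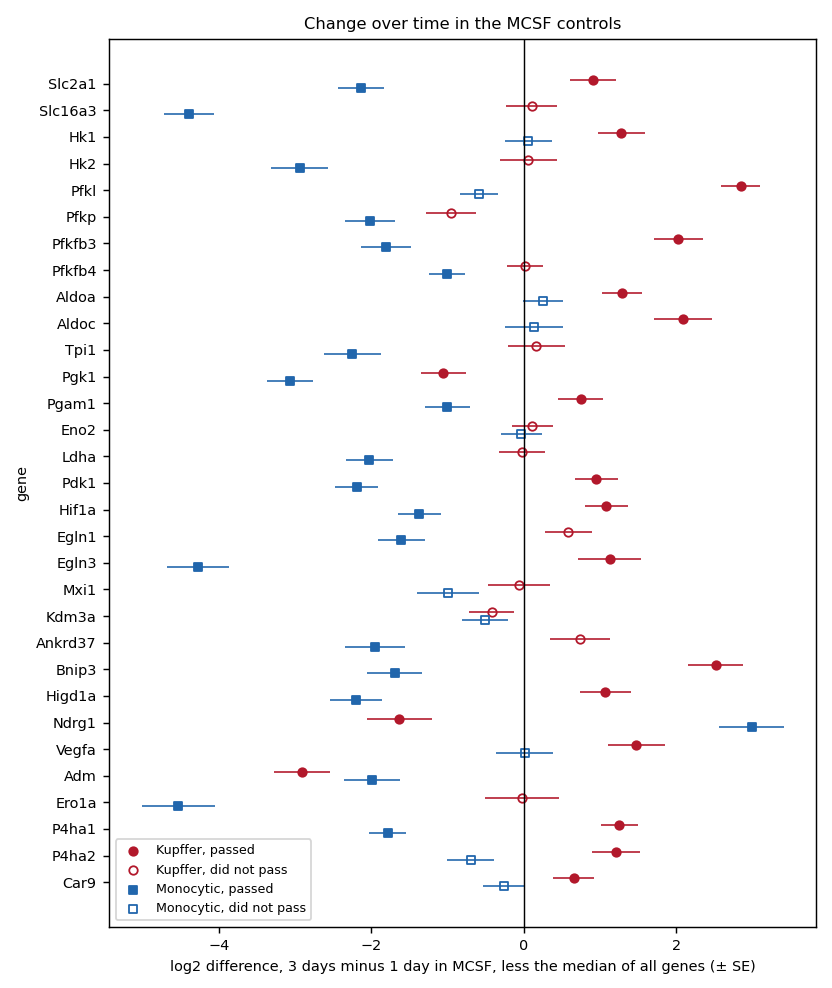
Log2 difference of each gene between 3 and 1 days in MCSF, less the median of all genes, with its SE, in Kupffer cells (circles) and monocytic macrophages (squares); filled symbols passed the test. Most circles lie right of 0 and most squares left of 0, with Ndrg1 reversed and Adm and Pgk1 left of 0 in both.

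Because the controls moved in opposite directions, the order of the 2 cell types turned between the days. At 1 day 15 genes were lower in Kupffer than in monocytic control cells and 2 higher, with 11.6% of all genes lower and 9.73% higher (21.3% in all). At 3 days 18 were higher in Kupffer cells and 1 lower, with 6.38% of all genes higher and 5.7% lower (12.1% in all). Those passing in all 4 comparisons among controls were Adm, Ndrg1, Pfkfb3, Higd1a, Pdk1, P4ha1, Bnip3 and Egln3. The 4 comparisons share arrays, so they are no independent counts.

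Egln3 was 2.36 ± 0.41 lower in Kupffer cells at 1 day (adjusted p = 4.24e-05) and 3.05 ± 0.41 higher at 3 days (adjusted p = 2.56e-07). Bnip3 was 2.07 ± 0.36 lower and then 2.15 ± 0.36 higher. Slc16a3 was 1.48 ± 0.33 lower and then 3.02 ± 0.33 higher, and Pfkfb3 1.19 ± 0.33 lower and then 2.66 ± 0.33 higher. Hif1a and Slc2a1 passed at 3 days alone, 2.01 ± 0.28 and 2.41 ± 0.30 higher in Kupffer cells, and at 1 day their differences were -0.46 and -0.65. Adm was 2.96 ± 0.37 higher in Kupffer cells at 1 day and at least 1.46-fold higher at 3 days, when it was under the negative controls in monocytic cells. Ndrg1 at 3 days was at least 3.09-fold lower in Kupffer cells.

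The 1-day comparison leans on 1 array. Without Kupffer control replicate 1, 10 of the 17 passed, and with only the 6 arrays compared 4 did. That array had the lowest signal of its group for Egln3 (8.32, against 10.52 and 10.67), Aldoc, Tpi1, Ldha and Bnip3. The calls lost without 1 array there were Egln1, Ero1a, Hk2, Mxi1, Pfkfb3, Pfkl and Pgam1 (adjusted p 0.0515 to 0.193), through that array or monocytic replicates 1 and 2. Centring each array on its median gave 27 calls. At 3 days Egln1 and P4ha2 were lost without Kupffer replicate 2 or 3 or monocytic replicate 1 or 2 (adjusted p 0.0704 to 0.139), and 17 of 19 held without any 1 array.

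**Figure D3:**
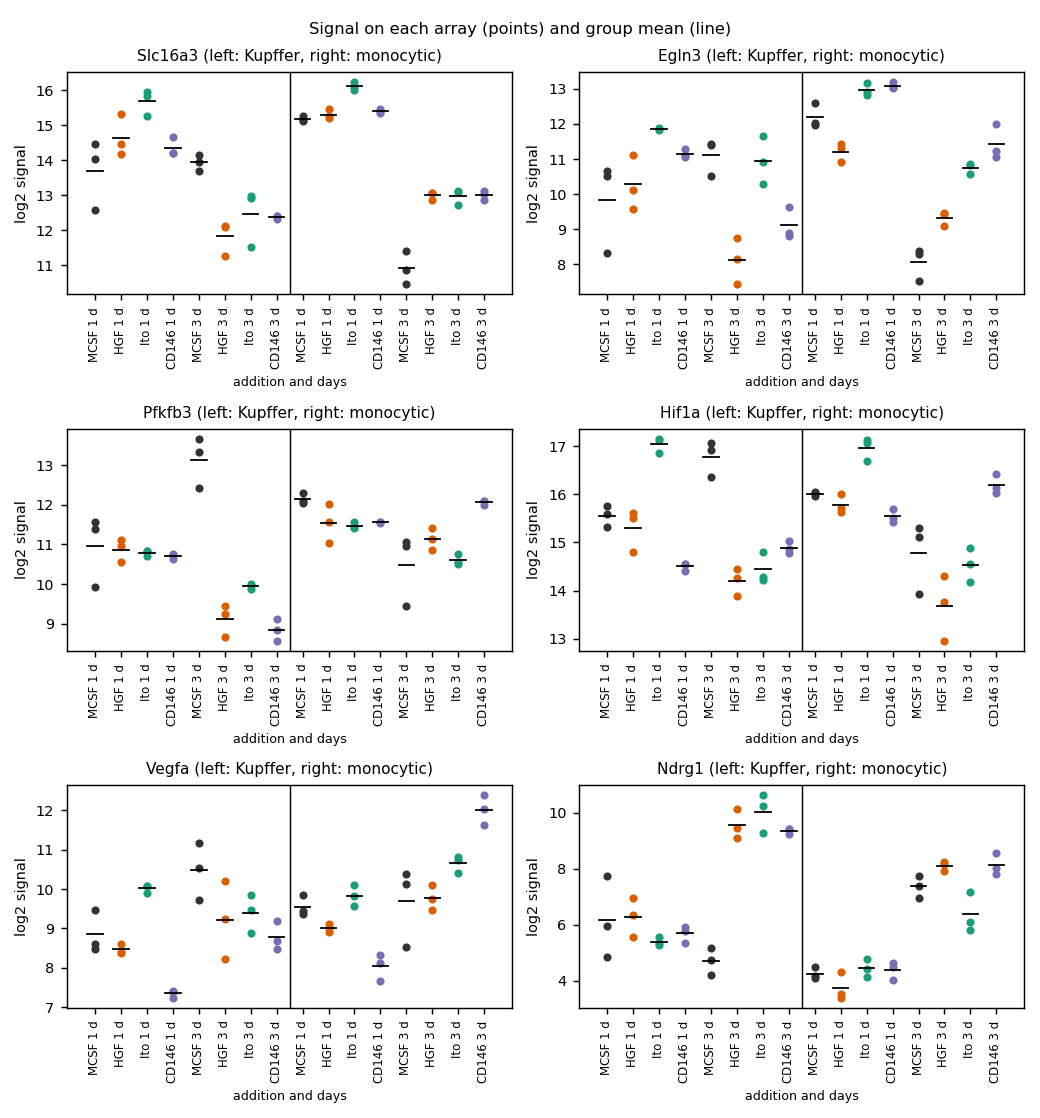
Signal of 6 genes on each of the 48 arrays (points; log2) with the group mean (line), Kupffer groups left of the vertical line and monocytic groups right. By group mean, Slc16a3 and Egln3 are lowest in the monocytic control at 3 days. For Egln3, Kupffer cells with HGF at 3 days are nearly level with it (8.11 against 8.06). Pfkfb3 is highest in the Kupffer control at 3 days and lowest in Kupffer cells with CD146 cells at 3 days.

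In Kupffer cells the 3 additions at 3 days went with lower levels than the control. With HGF 18 of the 31 genes were lower and 3 higher, with Ito cells 12 and 2, and with CD146 cells 16 and 2. Over all genes, 13.1%, 12.3% and 12.4% were lower and 14.5%, 14.5% and 14.0% higher, in all 27.6%, 26.8% and 26.4%. Medians of the 31 were -1.10, -0.48 and -0.79, against -0.00094, 0.11 and 0.01 for all genes. The 3 comparisons use the same 3 control arrays, so their values are set side by side and are not independent. In all 3 the addition also took the place of MCSF.

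Genes at or next to the committed step moved in both directions. Pfkfb3 was at 8.66, 9.25 and 9.44 with HGF, 9.87, 9.97 and 10.00 with Ito cells and 8.57, 8.85 and 9.11 with CD146 cells, all below the control. The differences were -4.03 ± 0.33, -3.30 ± 0.33 and -4.30 ± 0.33, with adjusted p-values of 3.31e-13, 1.94e-10 and 5.49e-14. Pfkl differed by -3.53 ± 0.25, -3.89 ± 0.25 and -3.58 ± 0.25, and no array with an addition, at 9.21 to 10.07, reached the control. Aldoc differed by -2.99 ± 0.38, -2.96 ± 0.38 and -2.10 ± 0.38. Pfkp, the platelet-type phosphofructokinase, rose instead, by 1.08 ± 0.33, 1.13 ± 0.33 and 1.88 ± 0.33. With HGF and with Ito cells its arrays overlapped the control. Tpi1, Pgk1, Pgam1 and Ldha passed with none of the 3.

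Among hypoxia response genes, Bnip3 differed by -3.45 ± 0.36 with HGF, -2.30 ± 0.36 with Ito cells and -3.75 ± 0.36 with CD146 cells. Its arrays read 7.41 to 8.20, 8.83 to 9.30 and 7.40 to 7.79, all under the 10.64 of the lowest control array. Hif1a was lower by 2.59 ± 0.28, 2.46 ± 0.28 and 1.90 ± 0.28 units, at 13.88 to 15.02 over the 9 arrays with an addition. Mxi1, an antagonist of MYC, was lower by 2.23 ± 0.41, 1.45 ± 0.41 and 2.66 ± 0.41 units. Slc16a3 was lower by 2.11 ± 0.33, 1.58 ± 0.33 and 1.56 ± 0.33, P4ha1 by 1.89 ± 0.24, 1.59 ± 0.24 and 1.84 ± 0.24, and the differences for Pdk1 were -1.69 ± 0.28, -1.39 ± 0.28 and -1.499 ± 0.28. Egln3 was 3.00 ± 0.41 lower with HGF and 2.00 ± 0.41 lower with CD146 cells, while with Ito cells (10.28, 10.90 and 11.65) it overlapped the control (10.50, 11.40 and 11.43) and did not pass.

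Ndrg1 ran opposite. The Kupffer control at 3 days, at 4.19, 4.73 and 5.18, was under the negative controls, and the arrays with an addition read 9.10 to 10.62. Ndrg1 was at least 14.2-fold higher with HGF, 19.6-fold with Ito cells and 12.2-fold with CD146 cells (adjusted p = 3.37e-12, 3.05e-13 and 1.04e-11). Adm passed as higher with HGF, by 1.28 ± 0.37 (adjusted p = 0.0062), with 1 of its 3 arrays inside the control range, and that call was lost with only the 6 arrays compared (adjusted p = 0.079). With Ito and CD146 cells it stood at -0.61 and -0.38 without passing, and HGF was not tested against either.

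Other lists moved beside these genes. Cell cycle genes averaged 6.86 in the Kupffer control at 3 days and 11.86 to 12.51 with an addition, and all 19 rose with each. Core macrophage genes averaged 16.43 in that control and 14.02 to 14.45 with an addition, 10, 7 and 9 of 11 being lower with HGF, Ito cells and CD146 cells. All 5 cholangiocyte genes rose with each addition, and of 14 endothelial genes 11, 6 and 5, and of 14 hepatocyte genes 9, 8 and 3. Ito cell and fibroblast genes averaged 6.57 in the control and 6.83, 5.90 and 6.69 with HGF, Ito cells and CD146 cells. The part of these lists in the result was not tested.

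Calls lost without 1 array were, with HGF, Adm, Ankrd37, Ero1a, P4ha2, Pfkp, Slc2a1 and Vegfa (adjusted p 0.0503 to 0.188), with Ito cells, Kdm3a, Mxi1, Pfkp, Slc2a1 and Vegfa (0.0539 to 0.273), and with CD146 cells, Pfkfb4 (0.0503 to 0.0763, without CD146 replicate 2 or control replicate 3). With HGF and with Ito cells each of the 6 arrays could lose 1 of these calls, and 14 of 21, 9 of 14 and 17 of 18 calls held without any 1 array.

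In monocytic macrophages the same additions at 3 days went with higher levels than the control. With HGF 15 genes were higher and 1 lower, with Ito cells 16 and 2, and with CD146 cells 16 and 1. Over all genes 7.56%, 5.8% and 1.22% were higher and 5.46%, 6.66% and 1.18% lower, in all 13.0%, 12.5% and 2.4%. Quantile normalization gave 15 higher and 3 lower with HGF. The 16 higher with CD146 cells include Adm, whose mean was under the negative controls in both groups. Medians of the 31 were 0.845, 1.01 and 1.18, against -0.02, 0.04 and 0.06 for all genes. Here too the 3 control arrays are shared, and each addition took the place of MCSF.

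Slc16a3 was at 12.85 to 13.07 with HGF, 12.73 to 13.12 with Ito cells and 12.87 to 13.13 with CD146 cells, each array above the 11.42 of the highest control array. The differences of 2.08 ± 0.33, 2.06 ± 0.33 and 2.10 ± 0.33 (adjusted p = 1.82e-05, 2.13e-05 and 7.96e-05) were nearly alike, and all arrays stayed below the 15.11 of the lowest control array at 1 day. Slc2a1 rose by 1.86 ± 0.30, 1.24 ± 0.30 and 1.78 ± 0.30. Egln3 rose by 1.27 ± 0.41, 2.70 ± 0.41 and 3.37 ± 0.41, from 7.52, 8.30 and 8.36 to at most 9.47 with HGF, 10.86 with Ito cells and 11.99 with CD146 cells. Ankrd37, an ankyrin repeat gene induced by HIF-1, rose by 2.55 ± 0.39, 1.64 ± 0.39 and 2.49 ± 0.39. Tpi1 rose by 2.40 ± 0.37, 2.03 ± 0.37 and 1.55 ± 0.37, Pgk1 by 2.39 ± 0.30, 1.91 ± 0.30 and 1.34 ± 0.30, and Pdk1 by 1.99 ± 0.28, 1.90 ± 0.28 and 1.31 ± 0.28. Pfkp rose by 2.76 ± 0.33, 1.81 ± 0.33 and 1.18 ± 0.33, so at 3 days it passed as higher with every addition in both cell types. Its calls with CD146 cells here, and with HGF and Ito cells in Kupffer cells, were lost without some 1 array.

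Some genes passed with 1 addition or differed in sign between them. Vegfa was at 11.63, 12.02 and 12.38 with CD146 cells, above the 8.54, 10.14 and 10.39 of the control (2.33 ± 0.37, adjusted p = 0.000101), while HGF and Ito cells left it at 0.09 and 0.97 above the control mean without passing. Hif1a rose by 1.42 ± 0.28 with CD146 cells and fell by 1.10 ± 0.28 with HGF. Ldha rose with HGF (1.35 ± 0.30) and Ito cells (1.48 ± 0.30). P4ha2 rose by 1.75 ± 0.31 and 2.46 ± 0.31 with these, and Ero1a by 1.68 ± 0.48 and 2.40 ± 0.48. Aldoc fell with Ito cells (-1.55 ± 0.38) and CD146 cells (-1.46 ± 0.38). Ndrg1 did not pass with any of the 3.

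**Figure D4:**
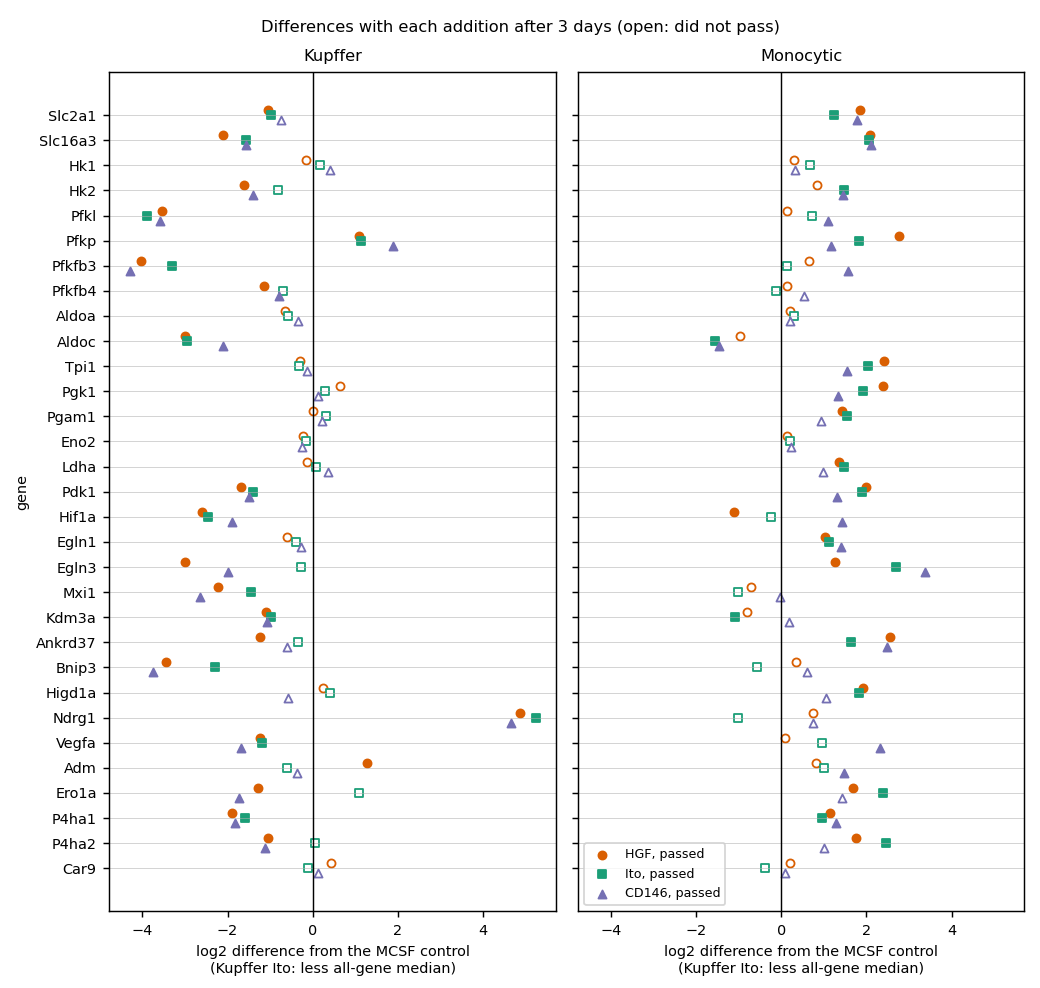
Log2 difference of each gene from the MCSF control of the same cell type at 3 days, with HGF (circles), Ito cells (squares) and CD146 cells (triangles); filled symbols passed the test. In Kupffer cells most filled symbols lie left of 0 and Ndrg1 far right, and in monocytic cells most lie right of 0.

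Cell cycle genes in monocytic cells at 3 days averaged 8.36 ± 2.69 (SD, n = 3) in the control, 10.50 with HGF, 11.18 with Ito cells and 6.85 with CD146 cells. Of these 19 genes 16 rose with HGF and 18 with Ito cells, and with CD146 cells 1 fell and none passed as higher. Endothelial averages in these 4 groups were at most 4.37 and hepatocyte averages at most 4.999. The 14 Ito cell and fibroblast genes averaged 6.30 in the control and 4.56, 4.70 and 5.09 with HGF, Ito cells and CD146 cells, 8, 7 and 6 of them passing as lower. The part of these lists in the result was not tested. With CD146 cells 7 of 17 calls held without any 1 array, 11 passed without CD146 replicate 3, and 8 with only the 6 arrays compared. Those lost without 1 array were Adm, Aldoc, Egln1, Hk2, Pdk1, Pfkfb3, Pfkl, Pfkp, Pgk1 and Tpi1 (adjusted p 0.0507 to 0.278), each of the 6 arrays losing at least 1. With HGF Egln1, Egln3, Ero1a and Hif1a were lost (0.0533 to 0.139), and with Ito cells Egln1, Kdm3a and P4ha1 (0.0558 to 0.143, without Ito replicate 1 or control replicate 1 or 2).

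The difference between the cell types in these responses was tested directly. At 3 days 22 genes responded lower in Kupffer cells to HGF, 16 to Ito cells and 22 to CD146 cells, and 1 gene, Ndrg1, responded higher to each. Of all genes, 7.61%, 4.16% and 8.54% responded lower and 7.58%, 4.58% and 9.64% higher, in all 15.2%, 8.75% and 18.2%. For Pfkfb3 the difference of responses was -4.67 ± 0.46, -3.33 ± 0.46 and -5.88 ± 0.46, and for Slc16a3 it was -4.19 ± 0.47, -3.53 ± 0.47 and -3.66 ± 0.47. Egln3 had -4.27 ± 0.58, -2.86 ± 0.58 and -5.37 ± 0.58, and P4ha1 had -3.04 ± 0.35, -2.44 ± 0.35 and -3.13 ± 0.35. Each of these had an adjusted p of at most 0.000465. The controls of both cell types enter every one of these differences.

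Higd1a, Hif1a, Pfkp and Pgam1 were lost from the HGF comparison without 1 array (adjusted p 0.0504 to 0.0727, over Kupffer HGF replicates 2 and 3, monocytic HGF replicate 3 and monocytic control replicates 1 and 3). With Ito cells Ankrd37, Bnip3, Egln1, Pgk1 and Vegfa were lost (0.0516 to 0.123), with every array but Kupffer control replicate 1 and Kupffer Ito replicate 1 able to lose 1. With CD146 cells Higd1a, Kdm3a, Pgk1 and Tpi1 were lost (0.0539 to 0.244), with every array able to. Calls held without any 1 array numbered 19, 12 and 19.

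At 1 day fewer of the genes passed with each addition than at 3 days, except with Ito cells in Kupffer cells, where 15 passed against 14. In Kupffer cells Ito cells gave 13 higher and 2 lower, against 5.47% and 18.0% of all genes (23.5% in all), whose median was -0.24. Egln3 rose by 2.26 ± 0.41 and Slc16a3 by 2.23 ± 0.33, the latter from 12.58, 14.04 and 14.46 to 15.27, 15.82 and 15.95. Slc2a1 rose by 1.83 ± 0.30, Hif1a by 1.74 ± 0.28, Hk1 by 1.73 ± 0.31, Hk2 by 1.60 ± 0.37, P4ha1 by 1.49 ± 0.24 and Vegfa by 1.42 ± 0.37. Hif1a went from 15.32, 15.60 and 15.75 to 16.87, 17.14 and 17.16. With each array centred on its median the count was 18 higher and 0 lower, and with quantile normalization 14 and 0. The 2 lower genes were Adm and Car9, the latter under the negative controls in both groups.

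This count also leans on single arrays. It was 8 without Kupffer control replicate 1, 9 without Ito replicate 2 and 6 with only the 6 arrays compared. The 6 calls that held without any 1 array were those of Slc2a1, Slc16a3, Hk1, Hif1a, Egln3 and P4ha1, the other 9 reaching adjusted p from 0.0505 to 0.333 without 1 of the 6 arrays. Neutrophil genes averaged 9.94 in this group and 7.61 in its control, 7 of 10 passing as higher. Endothelial genes averaged 5.45 against 8.18, all 14 lower, hepatocyte genes 5.85 against 7.005, 10 of 14 lower, and Kupffer cell genes 7.501 against 10.01, 9 of 12 lower. The 5 cholangiocyte genes were all lower too. The part of these lists in the result was not tested.

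HGF at 1 day gave 2 higher and 1 lower in Kupffer cells, against 4.13% and 13.4% of all genes (17.5% in all), and 4 higher and 0 lower with quantile normalization or with median centring. Ldha rose by 1.56 ± 0.30 (adjusted p = 0.00231), and Slc16a3 and Kdm3a, a histone demethylase, were lost without 1 of 5 arrays (HGF replicates 1 and 2 or any control replicate; adjusted p 0.0708 to 0.378). With only the 6 arrays compared none passed, Ldha included. Without HGF replicate 1 there were 5 calls. CD146 cells gave 3 lower and 0 higher in Kupffer cells, against 2.46% and 1.32% (3.78% in all), and 3 of each with quantile normalization. Adm fell by 3.19 ± 0.37 (adjusted p = 8.09e-08), from 8.23, 9.40 and 10.00 to 5.77, 6.06 and 6.23, Vegfa fell by 1.503 ± 0.37 and Hif1a fell by 1.05 ± 0.28. The last 2 were lost without control replicate 1 or 3 or a CD146 replicate (adjusted p 0.057 to 0.0955). The count was 1 without CD146 replicate 2 or with only the 6 arrays compared, and 5 without control replicate 2. Neutrophil genes averaged 9.66 with CD146 cells against 7.61, 7 of 10 higher, endothelial genes 5.68 against 8.18, 12 of 14 lower, and B cell genes 4.83 against 7.71, all 6 lower. Their part in the result was not tested.

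In monocytic cells Ito cells at 1 day gave 4 higher and 1 lower, against 1.91% and 13.6% of all genes (15.5% in all), whose median was -0.28. The lower gene was Car9, under the negative controls in both groups. The 4 were Slc2a1 (1.71 ± 0.30), Hk1 (1.61 ± 0.31), Pfkl (1.27 ± 0.25) and Hif1a (1.23 ± 0.28, lost without Ito replicate 1 or 2 or control replicate 1 at adjusted p 0.0509 to 0.0751). HGF gave 3 lower and 0 higher, against 37.2% and 0.22% of all genes (37.5% in all), whose median was -0.55, a share below the background. Of the 3, Car9 was under the negative controls in both groups and Bnip3 was lost without HGF or control replicate 1 or 2 (adjusted p 0.065 to 0.189). Centring each array on its median, or quantile normalization, left none of the 3. CD146 cells gave 2 lower and 0 higher, against 1.33% and 1.0% (2.33% in all), namely Vegfa (-1.52 ± 0.37) and Adm, at least 1.27-fold lower, and each of the 6 arrays left out ended 1 or both calls (adjusted p 0.051 to 0.148). With only the 6 arrays compared, 11, 11 and 4 genes passed with Ito cells, HGF and CD146 cells. Vegfa with CD146 cells at 1 day read 7.66, 8.12 and 8.31 in monocytic and 7.24, 7.39 and 7.40 in Kupffer cells, below every control array of the same cell type and day.

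The test of the difference of responses at 1 day gave 3 genes for HGF and 0 for Ito and CD146 cells, with 3 and 2 genes at an unadjusted p under 0.05 by limma. For Ito and CD146 cells 3.74% and 0.877% of all genes passed, 1.85% and 0.164% higher and 1.9% and 0.713% lower. Of all genes 20.9% responded higher in Kupffer cells to HGF, and 2.26% lower (23.1% in all), and the median of all genes was 0.36. Bnip3, Car9 and Eno2 were the 3, and Car9 and Eno2 were under the negative controls on all arrays compared. Each of the 3 calls was lost without some array and with only the 12 arrays compared. The count was 7 without Kupffer HGF replicate 2, 5 without Kupffer control replicate 3 and 1 without monocytic control replicate 2 or monocytic HGF replicate 3. Median centring gave 0 higher and 2 lower. Without Kupffer control replicate 3, 2 genes passed for Ito cells and 1 for CD146 cells.

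**Figure D5:**
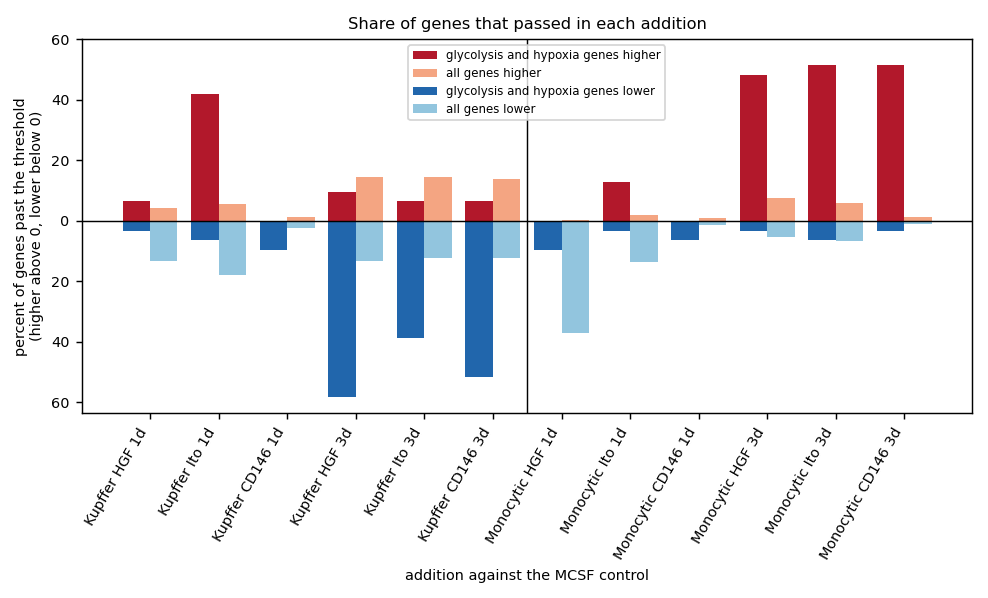
Percent of the 31 genes (dark bars) and of all genes tested (pale bars) that passed as higher (red, above 0) or lower (blue, below 0) with each addition against the MCSF control. At 3 days the dark bars point down in Kupffer cells and up in monocytic cells.

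Ito cells were also set against CD146 cells. In Kupffer cells at 1 day 11 genes were higher with Ito cells and 2 lower, against 6.6% and 20.8% of all genes (27.4% in all), and 8 and 3 with quantile normalization. Vegfa was 2.95 ± 0.37 higher, Hif1a 2.82 ± 0.28 and Adm 2.40 ± 0.37 (largest adjusted p of the 3, 3.51e-05). At 3 days 4 genes were higher and 0 lower, against 1.54% each way (3.08% in all), led by Ero1a at 2.91 ± 0.48 (12.83 to 14.22 with Ito cells, 10.22 to 10.96 with CD146 cells). In monocytic cells at 1 day 6 were higher and 2 lower, against 3.0% and 16.8% (19.8% in all), again with Vegfa (2.10 ± 0.37) and Hif1a (1.73 ± 0.28). At 3 days 1 was higher and 6 lower, against 5.82% and 5.49% (11.3% in all), and both genes were now lower with Ito cells, Hif1a by 1.66 ± 0.28 and Vegfa by 1.36 ± 0.37. The monocytic count at 1 day was 6 and 1 with quantile normalization and 7 and 1 with median centring. The monocytic Vegfa call at 3 days is among those lost without 1 array. In both cell types the lower genes at 1 day include Car9, under the negative controls with Ito and with CD146 cells.

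Calls held without any 1 array numbered 8 of 13 and 2 of 4 in Kupffer cells and 3 of 8 and 5 of 7 in monocytic cells. The Kupffer 1-day count was 8 without CD146 replicate 1 or without CD146 replicate 2, and the 3-day count was 2 without Ito replicate 3. The monocytic 1-day count was 3 without CD146 replicate 2, 5 without CD146 replicate 1 or 3 and 4 without Ito replicate 2 or 3. Lost calls were Bnip3, Hk1, P4ha1, Pgam1 and Tpi1, then Egln3 and P4ha2, in Kupffer cells, and Ankrd37, Hk1, Pgk1, Slc2a1 and Tpi1, then Bnip3 and Vegfa, in monocytic cells, at adjusted p from 0.0504 to 0.157 over the 4 comparisons.

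Genes beside the 31 on the same routes were taken from lists of other glycolysis genes (17 measured), other hypoxia targets (32), HIF machinery (13), the pentose phosphate route (5), pyruvate entry and the citric acid cycle (19) and gluconeogenesis (6). From 1 to 3 days in the Kupffer control, 7 of 19 citric acid cycle genes rose and 0 fell, 3 of 5 pentose phosphate genes rose and 0 fell, and 8 of 17 other glycolysis genes rose while 5 fell. Other hypoxia targets split into 11 higher and 5 lower of 32. In the monocytic control the same lists had 5 higher and 7 lower, 3 and 0, 4 and 5, and 8 and 10. Of the 13 HIF machinery genes 2 rose and 1 fell in the Kupffer control, and 1 rose and 2 fell in the monocytic control. That is 23.1% in each, below the share over all genes. Background shares are those given for the 2 time comparisons above.

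Among single genes, Vhl, the ligase subunit that recognises hydroxylated HIF, rose by 2.17 ± 0.34 over time in the Kupffer control. With HGF, Ito cells and CD146 cells at 3 days it was lower by 2.74 ± 0.34, 3.09 ± 0.34 and 2.49 ± 0.34. Vhl does not stand for its list. In those 3 comparisons 1, 1 and 2 of the 13 HIF machinery genes were lower and 1, 2 and 1 higher. These shares of 15.4%, 23.1% and 23.1% are below the 27.6%, 26.8% and 26.4% over all genes. Epas1, which encodes the HIF-2 alpha subunit, went from a mean of 5.47, under the negative controls, to 9.17 over time in the monocytic control, at least 10.3-fold higher, while Hif1a fell. Gbe1, the glycogen branching enzyme, rose by 3.39 ± 0.23 over time in the Kupffer control and was lower by 2.87 ± 0.23, 2.39 ± 0.23 and 2.83 ± 0.23 with the 3 additions. Plin2, a lipid droplet coat gene, moved against them, falling by 4.08 ± 0.22 over time and standing 3.68 ± 0.22, 4.39 ± 0.22 and 3.48 ± 0.22 higher with the additions. The lists of Gbe1 and Plin2 moved both ways with these. Of 17 other glycolysis genes 3 were higher and 7 lower with each addition (58.8%). Of 32 other hypoxia targets 5, 6 and 4 were higher and 9, 9 and 8 lower (43.8%, 46.9% and 37.5%). The shares over all genes are those just given. In monocytic cells Pkm, pyruvate kinase, fell by 1.30 ± 0.23 over time and was higher with HGF (1.35 ± 0.23) and Ito cells (1.42 ± 0.23) at 3 days. Of the 17 other glycolysis genes 3 were higher and 2 lower with HGF there (29.4%, against 13.0% of all genes). With Ito cells 3 were higher and 1 lower (23.5%, against 12.5%). Slc7a11, the cystine importer, fell by 5.45 ± 0.46 over time in the monocytic control.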

How the data were processed

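RNA of 48 mouse macrophage cultures was measured on Affymetrix arrays, 3 arrays in each of 16 groups taken from the sample titles and treatments. The authors deposited 1 table of log2 values per probe set, made with Transcriptome Analysis Console and RMA per the submitters' processing notes, in which arrays are already normalized together. Signals range from 0.881 to 19.93, and arrays give no read depth, so their number limits the precision. Of 28846 probe sets, 6704 were controls, 2570 transcript probe sets had no gene name and 19572 had 1; for the 55 genes with several the brightest on average was kept, which left 19505 genes. The mean of 5222 negative control probe sets (5.18 to 6.02 by group) served as the floor.

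From these values 1 mean per group was fitted over all 48 arrays with limma 3.58.1 in R 4.3.3, with 26 contrasts, eBayes and Benjamini-Hochberg adjustment over all genes within each contrast at a threshold of 0.05, two-sided. The code was tested on simulated data. Where all 3 arrays of a group lay under the negative controls, a fold is given against their mean as a bound. Named genes were the 31, with up to 8 rising and 8 falling by size put first in a comparison, and up to 3 of each other pathway list by adjusted p. The members and lists were chosen with earlier results of these data known. Alternatives were quantile normalization, centring arrays on their median, leaving out the dimmest 25% of genes, eBayes with trend and robust settings, the replicate number as a block, only the arrays compared, and leaving out arrays. Replicates within a group correlated at 0.9382 or more. Replicate numbers did not pair the samples. Promoters were read from a RefSeq table (GRCm38.p6), 30 of the 31 genes matching by Entrez gene ID. Figures were drawn with matplotlib 3.10.9 under Python 3.11.15.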

Additional observations from a re-analysis of the deposited data

Results flagged for a closer look

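By a test of the difference itself (limma, Benjamini-Hochberg adjustment over all genes), responses to each addition differed between Kupffer and monocytic macrophages at 3 days. At 1 day none of the 31 genes passed for Ito or CD146 cells. The genes given by size are listed with the log2 difference of responses, Kupffer minus monocytic. For HGF at 3 days they were Ndrg1 4.14, Pfkfb3 -4.67, Egln3 -4.27, Slc16a3 -4.19, Ankrd37 -3.79, Bnip3 -3.79, Pdk1 -3.68, Pfkl -3.66, P4ha1 -3.04. For Ito cells at 3 days they were Ndrg1 6.35, Pfkl -4.51, Slc16a3 -3.53, Pfkfb3 -3.33, Pdk1 -3.18, Egln3 -2.86, P4ha1 -2.44, P4ha2 -2.30, Tpi1 -2.25. For CD146 cells at 3 days they were Ndrg1 3.90, Pfkfb3 -5.88, Egln3 -5.37, Pfkl -4.68, Bnip3 -4.35, Vegfa -4.02, Slc16a3 -3.66, Hif1a -3.32, Ero1a -3.14. In these, Ndrg1 in the Kupffer control was under the negative controls. For HGF at 1 day, less the median of all genes, they were Bnip3 1.03, Car9 0.87, Eno2 0.78; Eno2 was under the negative controls on all arrays and Car9 on all arrays of the 4 groups compared, so neither is measured here, and each of the 3 calls was lost without some array. The 6 tests share the control arrays of their day.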

How the results depend on the processing

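Of the 309 calls of single genes, 215 held without any 1 array and 94 were lost without some array; median centring kept 298, quantile normalization 285, only the arrays compared 249, and eBayes with trend and robust settings all 309. Without the 3 arrays that stood apart, 194 of the calls in the comparisons that use them were kept and 20 lost. No call changed sign under the alternatives run; Ldha between 3 days and 1 day in the Kupffer control, not a call, went from 0.13 to -0.546 (adjusted p = 0.0485) without those 3 arrays. With quantile normalization the count of genes past the threshold became 6 for Kupffer CD146 cells at 1 day, 0 for monocytic HGF at 1 day, 7 for Kupffer Ito against CD146 cells at 3 days and 1 for the HGF response at 1 day. With median centring it became 0 for monocytic HGF at 1 day, 27 for Kupffer against monocytic control at 1 day and 1 for the Ito response at 1 day. Without the dimmest 25% of genes it became 1 for the HGF response at 1 day, and without the 3 arrays that stood apart 6 for Kupffer CD146 cells at 1 day. With only the arrays compared it became 0, 6 and 1 for Kupffer HGF, Ito and CD146 cells at 1 day, 11, 11 and 4 for the monocytic ones, 8 for monocytic CD146 cells at 3 days, 4 for the controls at 1 day, 8 and 11 for Ito against CD146 cells at 3 days in Kupffer and monocytic cells, and 0 for the HGF response at 1 day. The cause was not tested, except that fewer arrays enter the last setting. Leaving out 1 array gave counts from 3 to 5, 8 to 16 and 1 to 5 for Kupffer HGF, Ito and CD146 cells at 1 day, 0 to 1 for monocytic CD146 cells at 1 day and 11 to 17 at 3 days, 10 to 20 for the controls at 1 day, 8 to 13 and 2 to 4 for Kupffer Ito against CD146 cells at 1 and 3 days, 3 to 6 for the monocytic one at 1 day, and 1 to 7, 0 to 2 and 0 to 1 for the HGF, Ito and CD146 responses at 1 day; a group left with 2 arrays takes its spread from all groups. Replicate numbers did not pair the samples (mean correlation of deviations -0.0103 for the same number, 0.0055 for different ones, and 1 of 120 pairs of groups above 0.1 throughout). With the replicate block the Ito response at 3 days had 18 calls against 17, and the block changed no other count. No gene of the list has a further probe set, so that alternative gave no value. Signals of Eno2, Car9, Ndrg1 and Adm near or under the negative controls limit what their differences measure.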
